A study of Mus musculus with 6 samples.

Results

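Dusp1, Dusp3, Dusp6 and Dusp16 encode dual specificity phosphatases that act on MAP kinases, and they are the members of this family that carry a gene name on bead arrays of the mouse prelimbic cortex (PL), a part of the medial prefrontal cortex. Each is measured by 1 named probe, so the group holds 4 of 25697 probes and 4 of the 899 probes with a name. A probe has a name here only because the study selected it at a difference of at least 1.2-fold between groups of these same arrays. Dusp1, Dusp3 and Dusp6 were selected between CRST and CON, and Dusp16 between CRST+RS5 and CRST. Because the members were chosen by those differences, the differences are described and not tested. Tests of the members are limited to comparisons that the selection did not use. Of 14 MAP kinase phosphatases listed for the family, 4 have a named probe, and the others, among them Dusp4 and Dusp5, are not analysed here.

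CON mice were naive and unrestrained. Daily restraint of 2 h over 14 days defined CRST, and CRST+RS5 mice went through the same 14 days and were then restrained for 5 min a day over another 14 days. All were male C57BL/6 mice of 3 months, killed on post-stress day 22. Each group has 2 arrays, and each array holds RNA pooled from the PL of 6 to 7 animals, so the spread between arrays is that between pools and not between mice. With 2 arrays per group, their number limits the precision of every value.

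MAP kinases such as ERK, JNK and p38 are switched on when a threonine and a tyrosine in their activation loop are phosphorylated. Dual specificity phosphatases remove both phosphates and so end the signal. Several of their genes are themselves induced through the kinases they silence, which makes a negative feedback loop, and in neurons Dusp1 is induced by activity together with immediate early genes. Dusp1 (MKP-1) is an inducible nuclear phosphatase for p38, JNK and ERK, and glucocorticoids induce it in many cell types. Dusp6 (MKP-3) is cytoplasmic and prefers ERK, Dusp16 (MKP-7) prefers JNK and p38, and Dusp3 (VHR) is a small phosphatase that lacks the kinase-binding domain of the other members.

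The promoters of Dusp1 and Dusp16 are shown because only these windows, among those of the 4 genes, hold the motif that CREB and ATF proteins bind. They cover 250 bases upstream of a transcript start in RefSeq (build GRCm38.p6), Dusp1 at chr17:26508473-26508722 and Dusp16 at chr6:134792629-134792878, both for genes on the minus strand and both written 5′ to 3′ along the gene. Capitals mark TGACGTCA, the full cAMP response element, or TGACG, its shorter form.
Dusp1: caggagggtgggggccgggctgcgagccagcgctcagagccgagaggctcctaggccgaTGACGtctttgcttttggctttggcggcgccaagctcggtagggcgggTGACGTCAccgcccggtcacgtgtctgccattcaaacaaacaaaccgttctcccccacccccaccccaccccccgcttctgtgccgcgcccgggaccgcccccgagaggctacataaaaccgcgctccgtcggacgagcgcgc
Dusp16: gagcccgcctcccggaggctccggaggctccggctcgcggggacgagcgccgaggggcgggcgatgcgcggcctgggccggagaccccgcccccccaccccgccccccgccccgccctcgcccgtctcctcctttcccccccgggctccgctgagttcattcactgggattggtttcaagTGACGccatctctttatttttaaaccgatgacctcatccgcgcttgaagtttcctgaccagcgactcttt
In Dusp1, TGACGTCA begins 143 bases upstream of the start and a separate TGACG 191 bases upstream. In Dusp16, TGACG begins 70 bases upstream, and this window lies inside the outer limits of the annotated gene, upstream of an internal start. Searched on both strands of 32851 windows of this length, TGACGTCA was present in 1.55% and TGACG, which TGACGTCA contains, in 17.8%. The CArG box bound by SRF (held by 1.47% of windows), the glucocorticoid response element, AGAACA and TGTTCT with 3 bases of any kind between them (0.00913%), and TGTTCT alone, which that element contains (16.1%), were in none of the 4 windows. A match is a description of these letters and not a site of binding, and a window without one says nothing about the factor.

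Across the 6 arrays the median signal ranged from 185.6 to 230.0, and 12645 to 13407 probes were detected. Comparisons used the 13083 probes that were detected on both arrays of a group, in any group, and the 4 phosphatase probes were detected on every array. Of 8 markers of cortical projection neurons, 7 are named and 6 of these were detected on all arrays. The summed signal of the 7 was 0.981 to 1.02 times the CON mean in CON, 0.955 to 1.18 in CRST and 0.811 to 0.942 in CRST+RS5. Cux2, from the same list, went the other way, at a log2 signal of 11.01 and 11.05 in CRST+RS5 against 10.77 and 10.82 in CON. Some arrays stood apart in markers of other tissue. The summed signal of 8 myelin markers was 1.89 times the CON mean on CRST replicate 2 and 0.858 to 1.04 on the others. The 8 meningeal markers, 6 of them detected on all arrays, were at 1.91 and 2.04 on the CRST+RS5 arrays, 0.534 and 0.870 in CRST and 0.784 and 1.22 in CON. The 6 olfactory mucosa markers, 1 of them detected on all arrays, were at 25.2 on CRST+RS5 replicate 2 and at 0.860 to 1.14 elsewhere. The 5 olfactory bulb markers, 2 of them detected on all arrays, were at 1.77 on that array and at 0.688 to 1.05 elsewhere. The 3 choroid plexus markers, 1 of them detected on all arrays, were at 2.42 on CRST replicate 2 and at 0.565 to 1.44 elsewhere. In RNA of whole tissue, fewer cells of a type and less RNA per cell cannot be told apart. In no comparison did a probe reach an adjusted p of 0.05 (limma, Benjamini-Hochberg). At an unadjusted limma p of 0.05, 428 of the 13083 probes (3.27%) passed between CRST and CON. Between CRST+RS5 and CRST 1107 passed (8.46%), and between CRST+RS5 and CON 1045 (7.99%).

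Dusp1 was lower in CRST than in CON and lowest in CRST+RS5. Its gene lies at chr17:26505591-26508472 (GRCm38.p6). On the log2 scale of quantile normalized signal, it stood at 12.25 and 12.17 on the CON arrays, at 11.63 and 12.04 on the CRST arrays and at 11.53 and 11.61 on the CRST+RS5 arrays. Every CON array was above every other array, both CRST+RS5 arrays were below both CRST arrays, and CRST replicate 1 stood close to the CRST+RS5 arrays while CRST replicate 2 stood nearer to CON. The mean was 12.21 ± 0.054 (SD, n = 2) in CON, 11.83 ± 0.29 in CRST and 11.57 ± 0.057 in CRST+RS5.

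The spread of Dusp1 within CRST was wide. Its 2 CRST arrays differed by 0.41 on the log2 scale, more than 97.5% of the compared probes, whose median gap in that group was 0.10. The signal before normalization was 2888 and 5254 on these arrays, and CRST replicate 2 was both the highest of the 6 arrays for Dusp1, above 4379 and 5024 in CON, and the array with the highest median signal. It is also the array with the high myelin markers and with the highest summed choroid plexus (2.42 times the CON mean) and projection neuron (1.18) markers. The part of these markers in the Dusp1 value of that array was not tested. The 2 CRST+RS5 arrays, at 2779 and 2996 before normalization, differed in Dusp1 by 0.080 on the log2 scale after it. On both of these arrays meningeal markers (1.91 and 2.04 times the CON mean) and endothelial and vessel wall markers (1.27 and 1.43) were high. The summed markers of cortical projection neurons stood at 0.811 and 0.942 there, although Cux2 among them was higher than in CON. Olfactory mucosa markers were high on replicate 2 alone. The part of these markers in the Dusp1 values was not tested.

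CRST minus CON was −0.37 for Dusp1 on the log2 scale, or 1.30-fold lower. Because this difference put Dusp1 in the group, it carries no test. It was −0.17 without CRST replicate 1 and −0.58 without CRST replicate 2, so that the smaller value fell short of 1.2-fold. CRST+RS5 minus CRST was −0.26, or 1.198-fold lower and just outside the criterion, and this difference was −0.053 without CRST replicate 2 and −0.47 without CRST replicate 1. CRST+RS5 minus CON was −0.63, or 1.55-fold lower, a difference that stayed between −0.67 and −0.59 whichever array was left out. These comparisons share arrays with each other.

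Dusp6 was lower in CRST and in CRST+RS5 than in CON, with little between the restrained groups. Its gene lies at chr10:99263231-99267489. The log2 signal was 12.68 and 12.66 in CON, 12.48 and 12.33 in CRST, and 12.47 and 12.41 in CRST+RS5. Both CON arrays were above all 4 arrays of restrained mice, and the CRST and CRST+RS5 arrays overlapped. The mean was 12.67 ± 0.015 (SD, n = 2) in CON, 12.40 ± 0.11 in CRST and 12.44 ± 0.046 in CRST+RS5, and the gap between the CON arrays, 0.021, was smaller than that of most probes.

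The size of the Dusp6 difference was modest. CRST minus CON was −0.27 on the log2 scale, 1.202-fold lower and just inside the criterion that selected it, and this value was −0.19 without CRST replicate 2 and −0.34 without CRST replicate 1. When arrays were scaled to a common median in place of quantiles, it was −0.20, short of 1.2-fold. CRST+RS5 minus CRST was 0.038, within the spread of the arrays, and −0.12 under median scaling, a setting that put the median of all probes at −0.11 in this comparison. CRST+RS5 minus CON was −0.23, or 1.17-fold lower, and −0.32 under median scaling.

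Dusp16 followed another order, with CON and CRST alike and CRST+RS5 lower. Its gene lies at chr6:134715468-134807063. The log2 signal was 9.10 and 9.11 in CON, 9.07 and 9.16 in CRST, and 8.83 and 8.82 in CRST+RS5. The CRST arrays lay on either side of the CON arrays, and both CRST+RS5 arrays were below the other 4. Group means were 9.10 ± 0.0058 (SD, n = 2), 9.11 ± 0.061 and 8.82 ± 0.00097, and the CRST+RS5 arrays differed by less than all but 0.818% of probes.

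CRST+RS5 minus CRST was −0.29 for Dusp16 on the log2 scale, or 1.22-fold lower, the difference on which it was selected. Leaving out single arrays gave −0.33 to −0.24, the smallest without CRST replicate 2 and short of 1.2-fold, as was the value with 50 added to the signal before the logarithm (−0.26). CRST+RS5 minus CON was −0.28, or 1.21-fold lower, and −0.28 to −0.27 with single arrays left out. CRST minus CON was 0.011. Meningeal markers were high on both CRST+RS5 arrays and olfactory mucosa markers on replicate 2, and their part in the result was not tested.

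Dusp3 varied as much within groups as between them. Its gene lies at chr11:101971141-101987013. The log2 signal was 8.84 and 8.51 in CON, 8.57 and 8.26 in CRST, and 8.60 and 8.42 in CRST+RS5. The groups overlapped in every comparison, and replicate 1 was above replicate 2 in each group. Among arrays of the same replicate number, the order from high to low was CON, CRST+RS5, CRST for both numbers. No label says what a number shares, so the arrays were not paired. The gap between replicates was 0.33 in CON and 0.32 in CRST, larger than that of 97.1% and 93.7% of probes. Group means were 8.68 ± 0.24 (SD, n = 2), 8.41 ± 0.22 and 8.51 ± 0.13.

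CRST minus CON was −0.26 for Dusp3 on the log2 scale, 1.201-fold lower and the closest to the criterion on its inner side. It was −0.098 without CON replicate 1 and −0.11 without CRST replicate 2, and −0.43 and −0.42 without the other array of either group. It fell short of 1.2-fold under median scaling (−0.23) and with 50 added to the signal (−0.23). CRST+RS5 minus CRST was 0.099 and CRST+RS5 minus CON −0.17, and with single arrays left out the first value ran from −0.060 to 0.26 and the second from −0.33 to 0.0011.

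**Figure D1:**
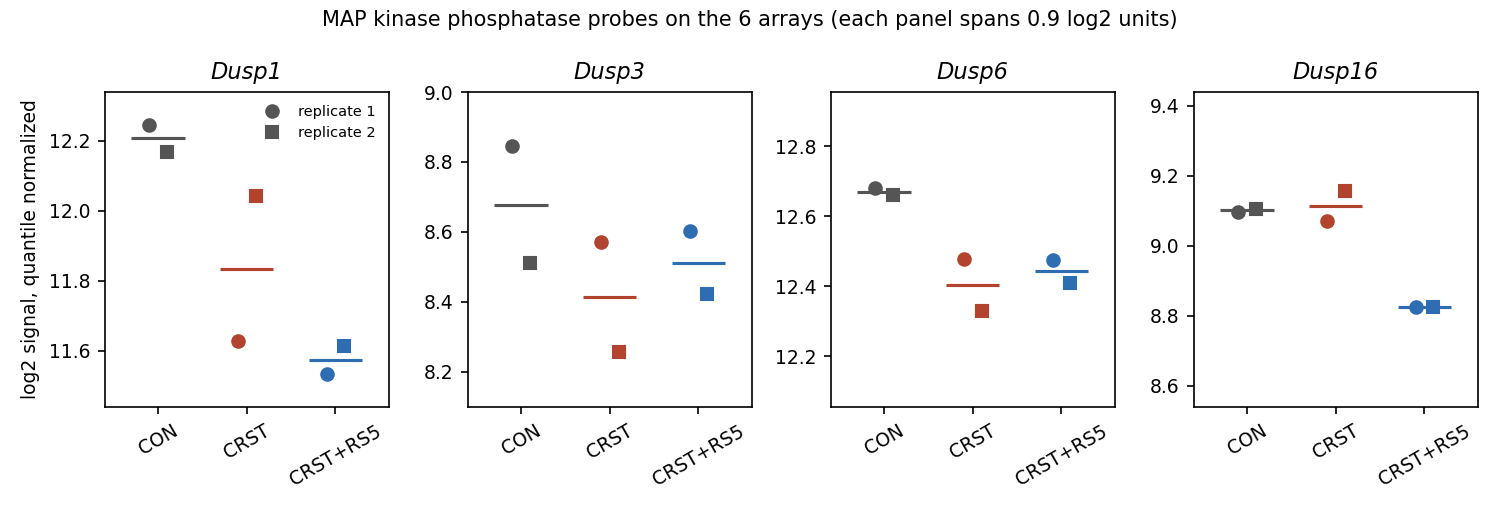
Log2 quantile normalized signal of the 4 phosphatase probes (y axis, each panel spanning the same range) on the arrays of CON, CRST and CRST+RS5 (x axis), with circles for replicate 1, squares for replicate 2 and bars for group means. Dusp1 and Dusp6 are highest on both CON arrays, Dusp16 is lowest on both CRST+RS5 arrays, and the groups overlap in Dusp3.

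Read by group, the order of the levels was CON, CRST, CRST+RS5 for Dusp1, with no overlap between neighbours but a CRST spread that reached close to CRST+RS5. For Dusp6 it was CON, CRST+RS5, CRST, and the lower pair did not differ beyond their spread. For Dusp3 the order was the same as for Dusp6, and none of the neighbours differed beyond their spread. For Dusp16 it was CRST, CON, CRST+RS5, and the upper pair overlapped. The members thus did not share a profile. The mean absolute difference between centred profiles over the 6 arrays was smallest for Dusp3 and Dusp6, at 0.099 on the log2 scale, and widest for Dusp1 and Dusp3, at 0.28.

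Counted over members, 3 of 4 were lower in CRST than in CON by at least 1.2-fold, which was true of 0.864% of all compared probes, and 2 of 4 were lower on both CRST arrays than on both CON arrays, as were 14.3% of probes. Between CRST+RS5 and CRST, 1 of 4 was lower by 1.2-fold (1.75% of probes) and 2 of 4 were lower on all arrays (21.8%). The choice of members rests on these comparisons, so nothing is read from the counts. Between CRST+RS5 and CON, which shares arrays with both, 2 of 4 were lower by 1.2-fold (1.31% of probes) and 3 of 4 on all arrays (22.2%). The median difference over the 4 members was −0.27, −0.11 and −0.25 in the 3 comparisons, against 0.000054, −0.012 and −0.011 over all probes. Differences that selected members are part of the first and second medians, and the third comparison shares arrays with both. Nothing is read from the medians either. No member was higher by 1.2-fold in any of the 3 comparisons, as 0.780%, 2.89% and 2.57% of probes were. With arrays scaled to a common median, the members lower by 1.2-fold numbered 1, 2 and 3 of 4 in the same 3 comparisons, in place of 3, 1 and 2. With 50 added to the signal they numbered 2, 0 and 1. Median scaling also turned the split of the calls over all probes: 65 of 309 probes at 1.2-fold were lower in CRST than in CON, against 113 of 215 with quantiles, 1216 of 1427 against 229 of 607 in CRST+RS5 against CRST, and 430 of 649 against 172 of 508 in CRST+RS5 against CON.

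**Figure D2:**
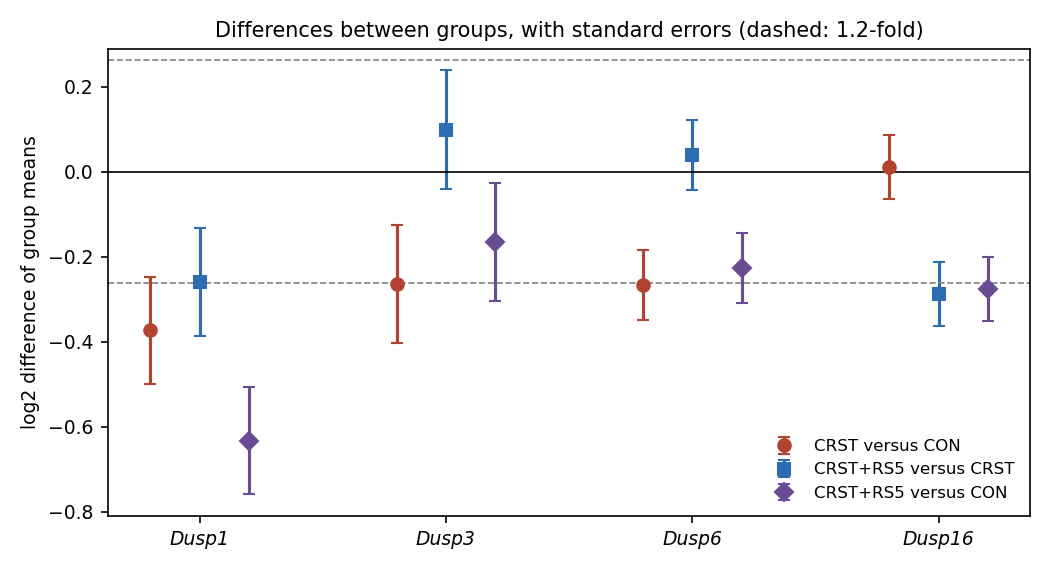
Difference of group means in log2 units (y axis) for each phosphatase (x axis), in CRST against CON (circles), CRST+RS5 against CRST (squares) and CRST+RS5 against CON (diamonds), with bars of 1 standard error from the fit and dashed lines at 1.2-fold. Dusp1 is the lowest point of the plot, at −0.63 in CRST+RS5 against CON, and Dusp3 and Dusp6 lie close to the line in CRST against CON.

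A comparison that the selection did not use was available for each member, because the third group enters it with the other pair averaged. For Dusp1, Dusp3 and Dusp6 this was CRST+RS5 against the mean of CON and CRST, which asks whether the level after the added short restraint differed from the other groups. For Dusp1 the difference was −0.45 on the log2 scale (95% interval −0.70 to −0.20), lower in CRST+RS5, and all 8 pairs of arrays went this way, as did all pairs for 11.8% of probes. Its unadjusted limma p was 0.0030, and its adjusted p of 0.284 did not pass. The adjusted p ranged from 0.0516, without CRST replicate 1, to 0.789, without CRST+RS5 replicate 2, over the alternatives. No probe passed here, and 9.75% had an unadjusted p under 0.05.

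For Dusp6 the difference was −0.095 in the same comparison (95% interval −0.26 to 0.07, limma adjusted p = 0.708), with 6 of 8 pairs of arrays in this direction. For Dusp3 it was −0.033 (−0.31 to 0.24, limma adjusted p = 0.956) and its arrays overlapped. These intervals include 0 and, for Dusp3, also differences as large as the one that selected it. For Dusp16 the comparison left to test was CON against the mean of CRST and CRST+RS5. CON was higher by 0.13 (95% interval −0.016 to 0.28, limma adjusted p = 0.977), with 6 of 8 pairs in this direction and overlapping arrays, while 6.23% of probes were higher in CON on all arrays.

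**Figure D3:**
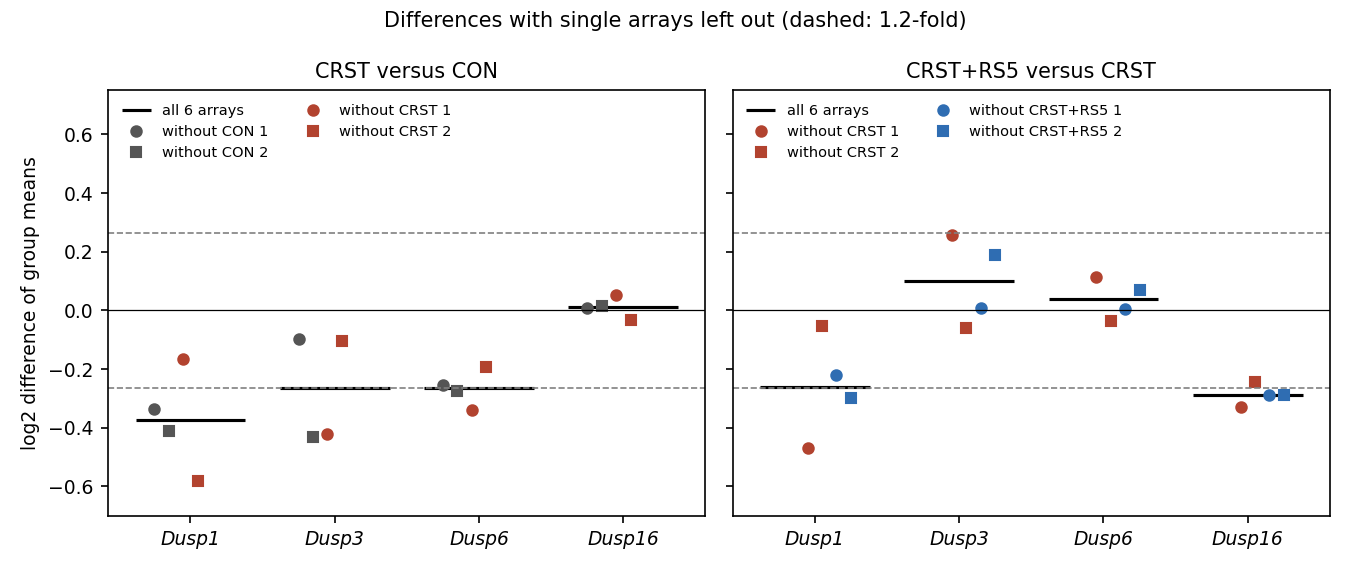
Log2 difference of group means (y axis) for each phosphatase (x axis), in CRST against CON (left) and CRST+RS5 against CRST (right), with all 6 arrays (bars) and with 1 array left out (symbols), and dashed lines at 1.2-fold. Dusp1 moves most with the CRST arrays, from −0.17 to −0.58 on the left and from −0.47 to −0.05 on the right.

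For each member the named probes with the closest profile were those with the smallest mean absolute difference, over the 6 arrays, between log2 values centred on each probe's mean, among 678 other detected probes with a name. For Dusp1 these were Egr2, an immediate early transcription factor (0.099), Gpr21, an orphan G protein-coupled receptor (0.109), and Ppm1b, a metal-dependent serine/threonine phosphatase (0.112). No compared probe, named or not, was closer to Dusp1 than Egr2. Egr2 stood at 8.65 and 8.59 in CON, 8.14 and 8.46 in CRST, and 8.22 and 8.26 in CRST+RS5. As in Dusp1, CRST replicate 1 was near the CRST+RS5 arrays and CRST replicate 2 between them and CON.

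Dusp6 was closest to Kcns2, a modulatory potassium channel subunit (0.024), then Pdxk, the pyridoxal kinase (0.033), and Zmynd11, a chromatin reader (0.037). Of the compared probes, named or not, 5 and 9 were closer to Dusp6 than the latter pair. Dusp16 was closest to Chd1, a chromatin remodeller (0.018), Agpat9, an enzyme of glycerolipid synthesis (0.019), and Lsm14b, an RNA-binding protein (0.021). Dusp3 was closest to Chd4, another chromatin remodeller (0.032), Dmkn (0.052) and Pde1a, a calmodulin-dependent phosphodiesterase (0.053). Of the compared probes, 2, 31 and 32 were closer to Dusp3 than these genes. These likenesses rest on 6 arrays, and every named probe was selected on differences between the same groups.

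The cascades that these phosphatases silence were represented by few named probes. Of 25 listed genes from Ras to ERK, 7 have a named probe, and 6 were detected. CRST against CON gave 1 member higher by 1.2-fold (as were 0.780% of all compared probes) and none lower, at a median of −0.093. In CRST+RS5 against CRST, 3 were higher (2.89% of compared probes) and 3 lower (1.75%), at a median of 0.012. With median scaling none was higher and 3 were lower, at a median of −0.079. Higher were Shc1, an adaptor upstream of Ras (0.31), Araf, a Raf kinase (0.38), and Cnksr2, a scaffold of the cascade (0.36). Frs3, an adaptor of growth factor receptors, stood at −0.37. None passed limma's adjusted p, and each was named only because it met the 1.2-fold criterion in these comparisons.

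Of 15 listed genes of the JNK and p38 cascade, 3 have a named probe. Map3k1, an upstream kinase of JNK, was at 8.65 and 8.50 in CON, 8.35 and 8.39 in CRST, and 8.58 and 8.70 in CRST+RS5, so that both CRST arrays were below the other 4. Map3k7 (TAK1), which activates both branches, was detected on 3 arrays and stood at 7.62 and 7.54 in CON, 7.74 and 7.83 in CRST, and 7.47 and 7.54 in CRST+RS5, the CRST arrays being highest. Mapk11, the beta form of p38 and a kinase that dual specificity phosphatases silence, was at 8.41 and 8.04, 8.12 and 7.79, and 7.92 and 7.95 in the same groups. Its CON and CRST arrays overlapped, and both CRST+RS5 arrays were below both CON arrays. Counted at 1.2-fold, CRST against CON gave none higher and 1 lower (0.864% of all compared probes), and CRST+RS5 against CRST 1 higher (2.89%) and 1 lower (1.75%). CRST+RS5 against CON gave none higher and 1 lower (1.31%), and no limma adjusted p passed. With median scaling none was lower in the first and none higher in the second.

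Of the named transcripts listed as induced through ERK signalling, most were lower in CRST+RS5 than in CON. ERK activity itself is not measured by these arrays. Of 22 listed, 11 have a named probe and all 11 were detected. In CRST against CON, 7 were lower by 1.2-fold (as were 0.864% of all compared probes) and none higher, at a median of −0.30. In CRST+RS5 against CRST, 4 were lower (1.75% of compared probes) and 1 higher (2.89%), at a median of −0.20. In CRST+RS5 against CON, 9 were lower (1.31%) and none higher, at a median of −0.39. With median scaling 5, 6 and 9 were lower and none higher. The study named these probes for differences in the first or second comparison, so the counts are not independent evidence of their direction, and none passed limma's adjusted p. Etv1 belongs both to these transcripts and to the projection neuron markers. On the CRST+RS5 arrays the summed meningeal markers were at 1.91 and 2.04 times the CON mean and the summed projection neuron markers at 0.811 and 0.942. Their part in these values was not tested.

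Arc, an activity-induced regulator of synaptic strength, showed the widest difference. It stood at 12.07 and 11.72 in CON, 10.91 and 11.28 in CRST, and 10.76 and 10.98 in CRST+RS5, with both CON arrays above the others and the CRST and CRST+RS5 arrays overlapping. Fos, an AP-1 subunit, was at 10.06 and 9.60, 9.31 and 9.47, and 8.92 and 8.96 in the same groups, ordered CON, CRST, CRST+RS5 with no overlap, as Dusp1 was. Fosb, its relative, stood at 8.70 and 8.72, 8.63 and 8.45, and 8.29 and 8.16, again without overlap. Ier3, an early response gene, differed from these: it was at 10.77 and 10.78 in CON, 10.65 and 10.54 in CRST, and 10.93 and 10.95 in CRST+RS5, where it was highest.

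**Figure D4:**
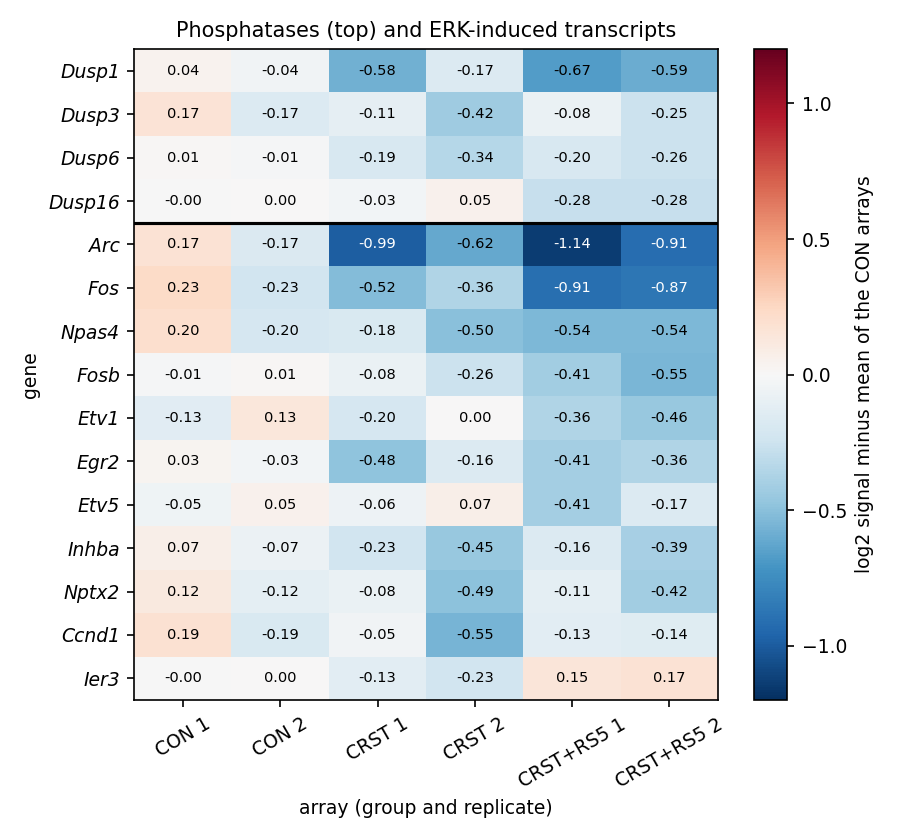
Log2 signal of the 4 phosphatases (top) and of the 11 named transcripts listed as ERK-induced (rows) on each array (columns), given as the difference from the mean of the CON arrays, with blue for lower and red for higher. Dusp1 lies between −0.17 and −0.67 on the restrained arrays, Fos, Arc and Fosb are lower on all 4 of them, and Ier3 is higher on both CRST+RS5 arrays.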

How the data were processed

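Pooled PL RNA was hybridized to 6 mouse Ref-8 v2 bead arrays, 2 for every group. From GenomeStudio the authors deposited linear signal intensity per probe, with no normalization between arrays. A detection p-value per probe stands beside it, also as deposited by the authors. The sources used here do not state a background subtraction. The authors also deposited log2 values normalized by quantiles.

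Here the deposited signal intensities were converted to log2 and normalized by quantiles with limma 3.58.1 (R 4.3.3), with no background step. The result and the table of log2 values from the authors had r = 0.999996 on each array. A probe was kept where, in any group, both arrays had a detection p-value under 0.05 (13083 of 25697). One limma fit over the 3 groups, with 3 residual degrees of freedom, gave differences, standard errors and 95% intervals, and p-values were adjusted by Benjamini-Hochberg over all kept probes with a threshold of 0.05. The study's 1.2-fold criterion served for descriptive counts. The fit was tested on simulated data. Figures were drawn with matplotlib 3.10.9 in Python 3.11.15.

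Gene names came from the probes that the study listed as selected, 264 between CRST and CON and 722 between CRST+RS5 and CRST, 87 of them in both. For each member the contrast orthogonal to the one that selected it was tested. Named in the text are the members, the 3 named probes nearest in profile to each, and the 4 genes of each list with the largest absolute moderated statistic in the 2 selecting comparisons, with all members shown in the plot of ERK-induced transcripts. The members and the 6 gene lists (MAP kinase phosphatases, other protein phosphatases, Ras to ERK, JNK and p38, ERK-induced and glucocorticoid-induced transcripts) were chosen with earlier results of these data known. Alternatives were scaling to a common median, neqc background correction, an offset of 50, the authors' log2 table, other detection filters, the replicate number as a block, only the groups compared, and single arrays left out. Printed differences are signed as the first group minus the second. The replicate numbers were not taken as pairs: correlations of same-numbered deviations were 0.247, 0.259 and 0.051, and no label says what a number shares. Nothing states that pools came from separate cohorts beyond the description of independent sets, so p-values measure the spread between these pools.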

Additional observations from a re-analysis of the deposited data

How the results depend on the processing

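Apart from single arrays left out, 118 of 124 recalculated values of the 4 phosphatases counted as unchanged, and 6 moved. Unchanged meant a move smaller than the spread between replicates or, in the averaged comparisons, the same sign and side of the adjusted p threshold. Crossing 1.2-fold was not counted as a move, as for Dusp6 in CRST against CON under median scaling (−0.20). The replicate block, the detection filters and the fit of only the groups compared cannot change a difference of means. Agreement of the differences under those settings was therefore fixed in advance. Scaling to a common median gave −0.12 for Dusp6 in CRST+RS5 against CRST, −0.32 for Dusp6 against CON, 0.064 for Dusp16 in CRST against CON and −0.37 for Dusp16 in CRST+RS5 against CRST, with a shift of −0.11 in the median of all probes between CRST+RS5 and CRST. Background correction by neqc gave −0.39 and −0.38 for Dusp16 in CRST+RS5 against CRST and against CON. Dusp1 in CRST+RS5 against CRST passed 1.2-fold under 2 of 8 settings, median scaling (−0.41) and neqc (−0.27). The settings of fixed outcome were among the others. The number of probes at 1.2-fold was 215 in CRST against CON, 607 in CRST+RS5 against CRST and 508 in CRST+RS5 against CON. It rose to 1398, 2040 and 1928 with neqc, was 130 in the first with an offset of 50, and was 1427 in the second with median scaling, where 1216 were lower against 229 in the main analysis. The cause was not tested.

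A replicate block let 34 probes pass an adjusted p of 0.05 in CRST+RS5 against CRST and 50 in CRST+RS5 against the mean of CON and CRST, in place of 0 in both. In the latter comparison the blocked limma adjusted p was 0.167 for Dusp1, 0.871 for Dusp3 and 0.590 for Dusp6, so none of these was among the 50. For Dusp16 the blocked fit was recorded only in its own comparison, with a limma adjusted p of 0.805, so its place among the 50 was not checked.

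With single arrays left out, differences in CRST against CON ran from −0.58 to −0.17 for Dusp1, −0.43 to −0.098 for Dusp3, −0.34 to −0.19 for Dusp6 and −0.032 to 0.054 for Dusp16. In CRST+RS5 against CRST they ran from −0.47 to −0.053, −0.060 to 0.26, −0.036 to 0.11 and −0.33 to −0.24, and in CRST+RS5 against CON from −0.67 to −0.59, −0.33 to 0.0011, −0.26 to −0.20 and −0.28 to −0.27. In CRST+RS5 against the mean of CON and CRST they ran from −0.55 to −0.34 for Dusp1, −0.12 to 0.056 for Dusp3 and −0.13 to −0.058 for Dusp6, and Dusp3 changed sign without CON replicate 1 (0.050), CRST replicate 1 (0.046) or CRST+RS5 replicate 2 (0.056). Dusp16 in CON against the mean of the restrained groups ran from 0.11 to 0.15. Probes at 1.2-fold numbered 215 to 823, 607 to 1223 and 508 to 1085, and probes past the adjusted p 0 to 14, 0 to 31 and 0 to 11 in the same comparisons, and 0 to 24 and 0 to 7 in the averaged ones. An array left alone in its group was assumed to vary like the others. Leaving out CRST replicate 2 and CRST+RS5 replicate 2 together was chosen after seeing the marker levels. In CRST against CON it gave −0.58 for Dusp1, −0.19 for Dusp6 and −0.032 for Dusp16, with 428 probes at 1.2-fold. In CRST+RS5 against CRST it gave −0.093 for Dusp1 and −0.24 for Dusp16, with 1085 probes at 1.2-fold. Dusp1 was then at −0.67 in CRST+RS5 against CON and at −0.38 in CRST+RS5 against the mean of CON and CRST.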

Other observations

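Phosphatases outside the MAP kinase family differed in their direction, and their counts changed with the scaling. In CRST+RS5 against CRST, of 7 named members among 16 listed, 5 were higher and 2 lower by 1.2-fold, at a median of 0.30 on the log2 scale. Of all compared probes, 2.89% were higher and 1.75% lower. With arrays scaled to a common median, 1 (Ptprb) was higher and 2 were lower, at a median of 0.16. All 7 were named because the study selected them, so the count is a description, and none passed limma's adjusted p. Ptprb, a receptor tyrosine phosphatase of endothelium, was at 9.11 and 9.29 in CON, 9.03 and 9.16 in CRST, and 9.65 and 9.56 in CRST+RS5, above the other arrays. The 5 endothelial and vessel wall markers, Ptprb among them, had a summed signal, relative to CON, of 1.27 and 1.43 in CRST+RS5, 0.759 and 0.893 in CRST and 0.941 and 1.06 in CON, and their part in the result was not tested. Ppp3ca, the catalytic subunit of calcineurin, was at 12.33 and 12.53, 12.37 and 12.46, and 12.70 and 12.78 in the same groups, again highest in CRST+RS5. Ptpro, a receptor phosphatase of neurons, was lowest in CRST, at 9.57 and 9.35 against 9.81 and 9.72 in CON and 9.79 and 9.86 in CRST+RS5. Ppm1b was lowest in CRST+RS5, at 8.25 and 8.36, against 8.72 and 8.71 in CON and 8.53 and 8.72 in CRST.

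Dusp1 is a glucocorticoid-induced gene in many cells, and most other genes of that kind named here had another profile. Of 14 listed, 4 have a named probe, and 3 of them were higher in CRST+RS5 than in CON by 1.2-fold, as were 2.57% of all compared probes, at a median of 0.39 on the log2 scale. With median scaling 3 were higher and 1 lower. All 4 were selected by the study on these arrays, and the count is a description. Meningeal markers (1.91 and 2.04 times CON) and endothelial markers (1.27 and 1.43) were high on the same CRST+RS5 arrays, and their part in the result was not tested. Txnip, a thioredoxin-binding protein, was at 8.58 and 8.77 in CON, 8.71 and 8.74 in CRST, and 9.04 and 9.15 in CRST+RS5. Sult1a1, a sulfotransferase, was at 9.19 and 9.19, 9.05 and 9.13, and 9.42 and 9.68. Per2, a clock gene, was at 11.08 and 11.43, 11.36 and 11.57, and 11.55 and 11.95, and its CRST and CRST+RS5 arrays overlapped. Cdkn1a, a cell cycle inhibitor, stood at −0.34 in CRST and −0.23 in CRST+RS5 relative to CON. Both its CON arrays were above all arrays of restrained mice, as for Dusp1 and Dusp6. None passed limma's adjusted p.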
